A study of Homo sapiens with 12 samples.

Results

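The 8 IFNα-treated samples of a 12-sample RNA sequencing series were compared by dose, 4 samples at 200 ng/ml against 4 samples at 20 ng/ml, with the line set as a covariate. The cells were Cal27 and HN30, established human HNSCC (head and neck squamous cell carcinoma) lines, kept without IFNα or with either dose for 24 h. Total RNA was depleted of rRNA and sequenced with its strand of origin kept. Samples carry the letters A to F and replicate 1 or 2. Letters B and E stand for 20 ng/ml, a figure taken from the description of the design, letters C and F for 200 ng/ml, and letters A and D for cells without IFNα. Every dose occurred once among A to C and once among D to F, which are called line sets A-C and D-F, since the sources used here do not say which line they are. The labels do not say whether replicates 1 and 2 were separate cultures, so the p-values measure only the spread between these samples, which may be technical.

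IFNα is a type I interferon. It binds the IFNAR1 and IFNAR2 receptor chains, and the kinases JAK1 and TYK2 then activate the transcription factor complex ISGF3. This complex binds the interferon-stimulated response element (ISRE) in the promoters of interferon-stimulated genes. Many of the encoded proteins block viruses, present antigen or attract lymphocytes, and others, such as USP18, dampen the signal. Where the response of a gene is saturated, a higher dose adds nothing further to its RNA level, and the comparison of the doses asked which induced genes were already near such a plateau at 20 ng/ml and which still rose or fell.

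Total estimated counts ranged from 11174407 to 14865450 per sample at 20 ng/ml and from 10517448 to 11854183 at 200 ng/ml. Levels are given as CPM, counts scaled by TMM to a common library total, which are not corrected for gene length. Within a line set the samples correlated at 0.944 to 0.979 (Pearson's r of log2 values across genes, which are not independent replicates, 30 pairs), and between line sets at 0.722 to 0.758 (36 pairs). Markers of squamous epithelial cells summed to between 1398 and 3350 TPM in the treated samples, all 8 being detected. Leukocyte markers summed to between 2.64 and 7.22 TPM with CD3E at 0, fibroblast markers to between 5.55 and 15.2, and endothelial markers to between 0.100 and 21.7 with KDR at 0. Mitochondrially encoded mRNAs took 5.21% and 4.81% of counts in B1 and B2 but 6.50% and 7.80% in C1 and C2, whereas E and F samples had between 3.72% and 4.41%.

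Most genes that IFNα induced stood slightly higher at 200 ng/ml than at 20 ng/ml, and few of these steps passed the test on their own. Of 19944 genes tested, 255 (1.28%) were induced, which means at least 2-fold higher in the treated samples of both doses together than in the controls with an adjusted p of at most 0.05 (edgeR). The induction contrast weights both doses equally, so the choice of induced genes did not use the difference between doses. From 20 to 200 ng/ml, 220 of the 255 induced genes (86.3%) had a positive difference, compared with 50.3% of all genes tested. The median log2 difference of the induced genes was 0.32, with 0.28 in line set A-C and 0.31 in line set D-F, and the median of all genes was 0.00. In 99 induced genes (38.8%) both 200 ng/ml samples exceeded both 20 ng/ml samples in both line sets, against 3.78% of all genes, and in 0 they lay below, against 3.42%. The median induced gene had gained, by 20 ng/ml, 69.8% of the CPM increase that it showed at 200 ng/ml in line set A-C, and 74.6% in line set D-F.

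The induced genes were then divided by the size and precision of the step. A gene was called higher or lower when the adjusted p of the difference between doses was at most 0.05, and level when it was not called and its 95% interval lay within 1.5-fold in either direction. By these rules 12 induced genes were called higher at 200 ng/ml and 0 were called lower, while 0.0903% of all genes were called higher and 0.0451% lower. At an unadjusted p under 0.05, 111 induced genes (43.5%) were higher and 0 were lower, compared with 4.35% and 4.90% of all genes. A further 83 induced genes (32.5%) were level, compared with 47.7% of all genes. The remaining 160 were neither, and had a median SE of 0.27 on the log2 scale against 0.07 for the 12 called genes and 0.09 for the level genes. The median gene among them had a mean of 102 counts in the treated samples. With induction also defined by DESeq2, that tool called 51 induced genes higher and 0 lower, all of the 12 being among the 51.

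The steps of the 12 had log2 differences of 0.38 to 1.64 with a median of 0.55, the largest being the 3.12-fold step of CXCL10. For 3 of the 12 the 95% interval lay wholly under 1.5-fold. The number called depended on individual libraries. It was 3 without B1, 1 without B2, 22 without C1, 6 without C2, 3 without E1, 3 without E2, 3 without F1 and 4 without F2, but stayed between 10 and 12 when a control was left out. In the 8 treated samples alone it was 5. With the step of each line set tested within the fit of all 12 samples, it was 5 in A-C and 0 in D-F. Each of the 12 genes kept a positive difference under all 20 alternatives computed for it, the separate line sets included. In all 12 the doses were separated in both line sets, so leaving out a sample or a line set could not reverse the sign. The kept direction is therefore no separate evidence.

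The 12 genes that still rose encode a chemokine, antiviral effectors, RNA sensors, guanylate-binding proteins and ligases. CXCL10, a chemokine that draws activated T cells, had the largest step of the 12. Its level was 4.48 and 4.72 CPM in B1 and B2, 14.7 and 14.5 CPM in C1 and C2, 2.45 and 3.10 CPM in E1 and E2, and 8.99 and 8.16 CPM in F1 and F2. Every 200 ng/ml sample exceeded every 20 ng/ml sample, across line sets too. The log2 difference was 1.64 (SE 0.23, 95% interval 1.13 to 2.16, adjusted p = 0.0372, edgeR), a fold of 3.12, and it was 1.66 in A-C and 1.62 in D-F. At 20 ng/ml CXCL10 had gained 25.0% of its 200 ng/ml increase in A-C and 31.8% in D-F, in contrast to the medians of 69.8% and 74.6% over all induced genes. The call was kept in 4 of 12 fits that each left out 1 sample, with log2 differences of 1.56 to 1.73 over the 18 alternatives in both line sets and adjusted p between 3.85e-08 and 0.146. The table places CXCL10 on chromosome 4, positions 76021117 to 76023497 of GRCh38.

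RSAD2, which encodes viperin, an enzyme that makes a chain-terminating nucleotide, was called in 17 of 18 alternatives in both line sets, more than any other of the 12. It stood at 113 and 115 CPM in B1 and B2 and at 217 and 193 CPM in C1 and C2. In the other line set it stood at 130 and 155 CPM in E1 and E2 and at 253 and 235 CPM in F1 and F2. The groups did not overlap in either set. The log2 difference of 0.81 (SE 0.08, adjusted p = 0.0104, edgeR), a fold of 1.75, was called in each of the 12 fits without 1 sample. RSAD2 lies on chromosome 2, positions 6865806 to 6898239 of GRCh38.

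The IFIT genes encode antiviral proteins, of which IFIT1 binds viral RNA with foreign 5′ ends, and 3 of the genes rose. IFIT2 had 196 and 195 CPM in B1 and B2, 343 and 311 CPM in C1 and C2, 153 and 153 CPM in E1 and E2, and 258 and 229 CPM in F1 and F2. All 200 ng/ml samples thus exceeded all 20 ng/ml samples, and the log2 difference was 0.70 (SE 0.07, adjusted p = 0.0112, edgeR). IFIT1 had 388 and 385 CPM in B1 and B2 and 617 and 649 CPM in C1 and C2, and it had 502 and 563 CPM in E1 and E2 and 763 and 749 CPM in F1 and F2. IFIT1 levels at 20 ng/ml were higher in D-F than in A-C, and within each set the doses did not overlap. Its log2 difference was 0.61 (SE 0.09, adjusted p = 0.0372, edgeR). IFIT3 went from 667 and 643 to 969 and 974 CPM in A-C and from 562 and 633 to 837 and 805 CPM in D-F, a log2 difference of 0.51 (SE 0.05, adjusted p = 0.0113, edgeR).

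GBP1 and GBP4 are GTPases of the guanylate-binding family, which coat intracellular bacteria and vacuoles. GBP1 had 164 and 168 CPM in B1 and B2 and 270 and 300 CPM in C1 and C2, compared with 82.3 and 89.6 CPM in E1 and E2 and 122 and 114 CPM in F1 and F2. Line set D-F had lower levels at each dose, and the doses were separated in both sets. The log2 difference was 0.62 (SE 0.08, adjusted p = 0.0341, edgeR) for GBP1 and 0.58 (SE 0.08, adjusted p = 0.0398, edgeR) for GBP4. GBP4 went from 68.0 and 57.2 to 95.7 and 109 CPM in A-C, and from 121 and 126 to 170 and 166 CPM in D-F.

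Of the sensors, DDX58 encodes RIG-I, which detects viral RNA, and DDX60L is a related helicase gene. DDX58 had 373 and 374 CPM in B1 and B2 and 509 and 506 CPM in C1 and C2, and in D-F it rose from 297 and 340 to 459 and 418 CPM. Its step was nearly the same in the sets, 0.44 and 0.46 on the log2 scale, with 0.45 in both together (SE 0.06, adjusted p = 0.0211, edgeR). DDX60L went from 187 and 178 to 251 and 252 CPM in A-C and from 551 and 568 to 695 and 692 CPM in D-F, a log2 difference of 0.38 (SE 0.05, adjusted p = 0.0179, edgeR). The D-F line set held more DDX60L at either dose, and the doses were separated in both sets.

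The last 3 of the 12 encode ubiquitin or ISG15 ligases. HERC5 is the main ligase that attaches ISG15 to proteins, TRIM21 is an antibody receptor in the cytosol that also restrains interferon signalling, and RNF213 is a very large ligase with antimicrobial activity. HERC5 had 38.8 and 39.1 CPM in B1 and B2 and 62.6 and 60.2 CPM in C1 and C2, and in D-F it had 137 and 140 CPM at 20 ng/ml and 174 and 166 CPM at 200 ng/ml. TRIM21 went from 72.5 and 76.7 to 120 and 119 CPM in A-C and from 125 and 141 to 178 and 152 CPM in D-F. For both genes the A-C step, 0.66 and 0.68 on the log2 scale, was greater in value than the D-F step, 0.29 and 0.31, but neither gene was called in the test of the difference between line sets. The log2 difference over both sets was 0.48 for HERC5 (SE 0.06, adjusted p = 0.0188, edgeR) and 0.49 for TRIM21 (SE 0.07, adjusted p = 0.0451, edgeR), the latter being kept in 1 of 12 fits without 1 sample. RNF213, named here after its values were seen, had 1070 and 1066 CPM in B, 1449 and 1350 CPM in C, 959 and 951 CPM in E and 1221 and 1231 CPM in F, a log2 difference of 0.38 (SE 0.05, adjusted p = 0.0185, edgeR).

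**Figure D1:**
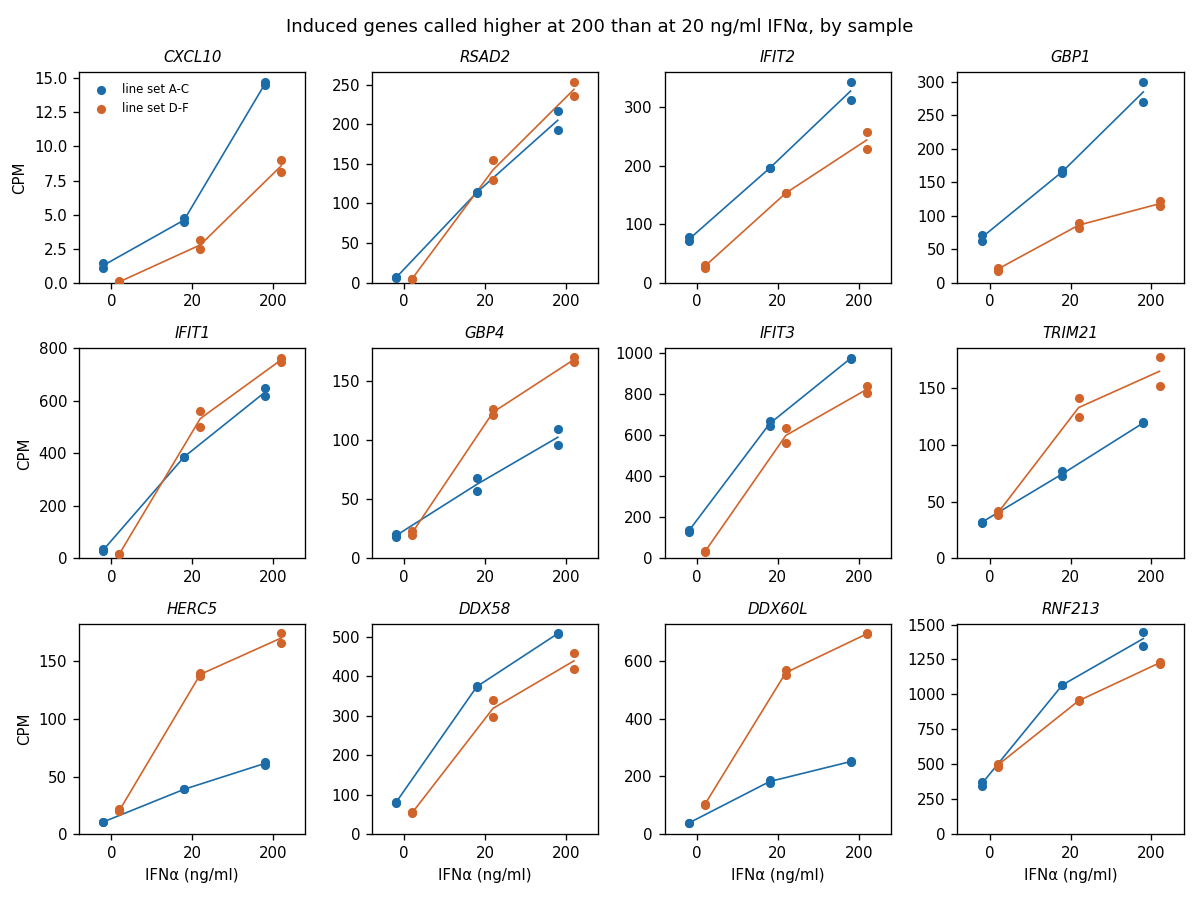
CPM (vertical axis, from 0) of the 12 induced genes called higher at 200 ng/ml, against IFNα dose in ng/ml (0, 20 and 200, evenly spaced), with 1 point per sample and lines through the mean of the 2 replicates of line set A-C (blue) and D-F (orange). In each panel both 200 ng/ml points of a line set lie above both of its 20 ng/ml points, and CXCL10 climbs from 4.48 and 4.72 to 14.7 and 14.5 CPM in A-C.

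At the other end of the range were induced genes that changed little between doses. IFI27, an interferon-stimulated gene of the ISG12 family, had 81.8 and 82.6 CPM in B1 and B2 and 79.8 and 74.2 CPM in C1 and C2, and it had 128 and 122 CPM in E1 and E2 and 123 and 122 CPM in F1 and F2. In A-C both 200 ng/ml samples lay just under both 20 ng/ml samples, and in D-F the doses overlapped. The log2 difference was -0.06 with a 95% interval of -0.20 to 0.08, although IFI27 was 3.01 higher (log2, both doses together) than in the controls, which had 11.2 to 13.1 CPM. Its increase at 20 ng/ml was 108% and 102% of that at 200 ng/ml in the line sets.

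IFI6, from the same family, showed little change. Its samples had 198 and 197 CPM in B, 233 and 207 CPM in C, 178 and 171 CPM in E and 204 and 216 CPM in F. The 200 ng/ml samples were higher in both sets, yet by a log2 difference of only 0.21 (95% interval 0.02 to 0.40, adjusted p = 0.505, edgeR). IFI44L had the largest induction of the level genes named here, 6.91 on the log2 scale, and a step of 0.25 (95% interval 0.04 to 0.46). At 20 ng/ml it had already gained 81.8% and 85.6% of its 200 ng/ml increase in A-C and D-F.

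ISG15 encodes a ubiquitin-like protein, the modifier that HERC5 attaches. In A-C it had 419 and 413 CPM at 20 ng/ml and 381 and 325 CPM at 200 ng/ml, whereas in D-F it had 438 and 387 CPM at 20 ng/ml and 535 and 587 CPM at 200 ng/ml. Thus ISG15 was lower at the high dose in one line set and higher in the other, with log2 steps of -0.24 and 0.44, and neither the step over both sets (0.10, 95% interval -0.22 to 0.42) nor the difference between sets was called. XAF1, an antagonist of the apoptosis inhibitor XIAP, went from 180 and 172 to 274 and 286 CPM in A-C but from 184 and 211 to 201 and 222 CPM in D-F, where the doses overlapped. Its A-C step of 0.67 exceeded 1.5-fold, as did the A-C step of ODF3B, -0.61, which was named after its values were seen. The other 81 of the 83 level genes were within 1.5-fold in both line sets by their fitted value. The long noncoding RNA gene LINC01285 had 8.39 to 10.3 CPM in B and C and 2.34 to 2.66 CPM in E and F, with overlapping doses in both sets.

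Level did not mean equal. Among the 83 level genes 73 had a positive difference, the 95% interval of 43 excluded 0, and the differences ranged from -0.07 to 0.42 with a median of 0.20. MX1 encodes a dynamin-like GTPase, and the study is about a noncoding transcript of its locus. Counts here are per gene, so they do not give the level of that transcript. MX1 narrowly missed the adjusted threshold. It had 1118 and 1144 CPM in B1 and B2, 1472 and 1604 CPM in C1 and C2, 1089 and 1212 CPM in E1 and E2, and 1406 and 1364 CPM in F1 and F2. Every 200 ng/ml sample lay above every 20 ng/ml sample, and the log2 difference was 0.36 (95% interval 0.23 to 0.48, adjusted p = 0.0535, edgeR). OAS1, which makes the messenger of RNase L, also missed it, with 161 to 196 CPM at 20 ng/ml, 211 to 246 CPM at 200 ng/ml and a difference of 0.37 (adjusted p = 0.0546, edgeR). DESeq2 called MX1 (adjusted p = 2.83e-05) and OAS1 (adjusted p = 0.000156) higher, as it did TRIM22 and XAF1, and edgeR called MX1 without C1 and without the filter on low counts. TRIM22, a ligase with antiviral activity, had a difference of 0.35 (95% interval 0.16 to 0.53) and EPSTI1 one of 0.30 (95% interval 0.04 to 0.56). With a margin of 2-fold in place of 1.5-fold, 162 induced genes were level.

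**Figure D2:**
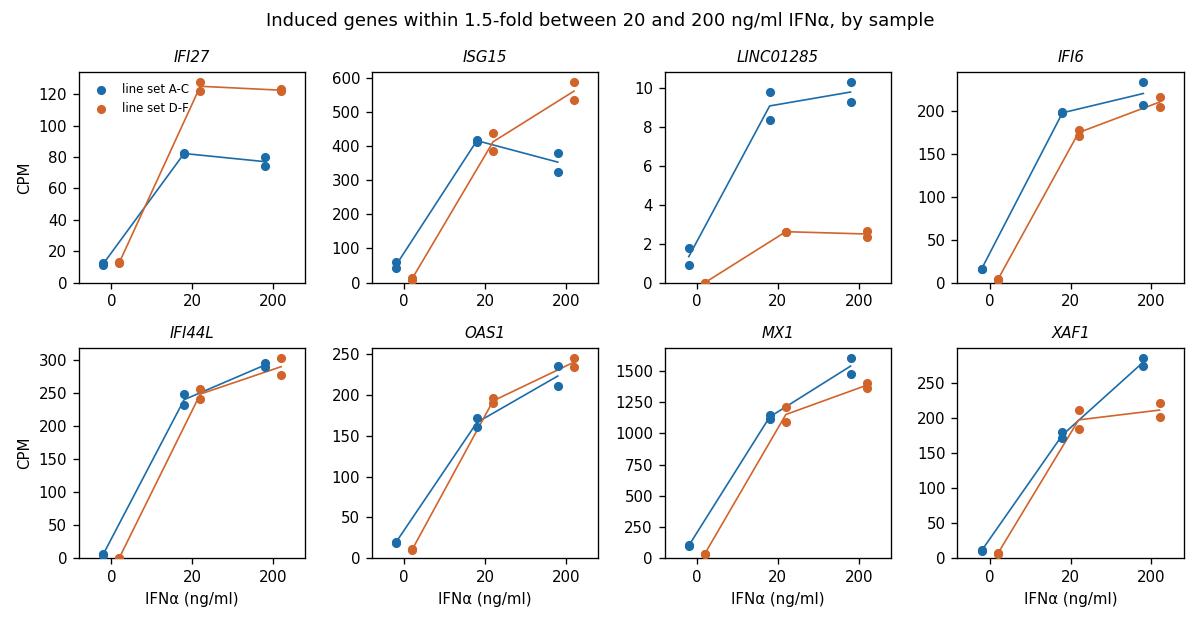
CPM (vertical axis, from 0) of 8 induced genes classed as level, against IFNα dose in ng/ml (0, 20 and 200, evenly spaced), with 1 point per sample and lines through the replicate means of line set A-C (blue) and D-F (orange). IFI27 differs little between 20 and 200 ng/ml, ISG15 turns in opposite directions in the 2 sets, and MX1 and OAS1 have somewhat higher means at 200 than at 20 ng/ml.

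**Figure D3:**
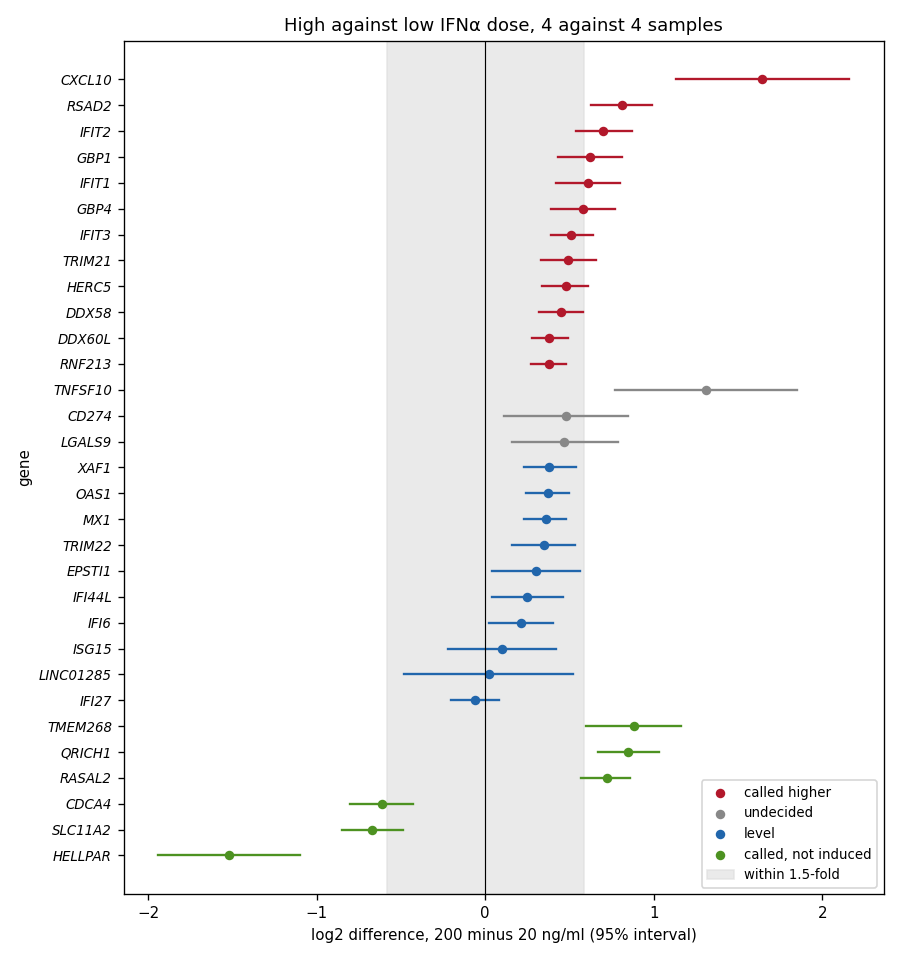
Log2 difference of 200 minus 20 ng/ml (horizontal axis, points, with 95% intervals from edgeR) for the 12 induced genes called higher (red), 3 induced genes that were neither called nor level (grey), 10 level induced genes (blue) and 6 called genes that were neither induced nor reduced (green), with the range within 1.5-fold shaded. CXCL10 at 1.64 and TNFSF10 at 1.31 lie to the right of the shaded range, and IFI27 at -0.06 lies near 0.

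Some promoters of the induced genes held the core of the sequence that ISGF3 reads, and others did not. In the RefSeq table of promoters (GRCh38.p14), the 250 bases before each start were searched on both strands for the ISRE core, which is GAAA, any 2 bases and GAAA again, with overlapping copies each counted. Promoters were listed for 10 of the 12 genes called higher, and 7 of these (70.0%) held the core at a listed start. It was held by 24 of 55 level genes (43.6%), 15 of 68 undecided induced genes (22.1%), 1 of 44 reduced genes (2.27%) and 1014 of 27305 genes in the table (3.71%). A match is a description of letters and not a proven binding site. The examples below are 30-base windows in the direction of the gene, with the core in capitals (TTTC, any 2 bases and TTTC where it is on the opposite strand). The first 5 are from genes that rose and the last 4 from level genes, to show that the core occurred in both.
CXCL10: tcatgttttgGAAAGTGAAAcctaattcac
RSAD2: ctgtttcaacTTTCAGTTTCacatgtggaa
IFIT1: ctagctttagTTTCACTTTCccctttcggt
IFIT3: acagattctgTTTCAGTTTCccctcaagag
GBP1: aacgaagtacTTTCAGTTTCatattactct
ISG15: tcgggaaaggGAAACCGAAActgaagccaa
IFI6: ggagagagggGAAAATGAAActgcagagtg
IFI27: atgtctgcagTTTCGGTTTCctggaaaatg
EPSTI1: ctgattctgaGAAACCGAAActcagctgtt
The windows of the genes that rose lie at chr4:76023699-76023728 (CXCL10, minus strand), chr2:6877622-6877651 (RSAD2, plus), chr10:89392497-89392526 (IFIT1, plus), chr10:89332425-89332454 (IFIT3, plus) and chr1:89065316-89065345 (GBP1, minus). Those of the level genes lie at chr1:1013380-1013409 (ISG15, plus), chr1:27672288-27672317 (IFI6, minus), chr14:94110618-94110647 (IFI27, plus) and chr13:42992272-42992301 (EPSTI1, minus). No core was found in this window of GBP4, RNF213 or TRIM21, which rose, nor of OAS1 and XAF1, which were level.

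The remaining 160 induced genes included large steps that missed the adjusted threshold. TNFSF10, the death ligand TRAIL, had 128 and 114 CPM in B, 192 and 221 CPM in C, 32.3 and 32.4 CPM in E and 127 and 105 CPM in F. The doses were separated in both sets, with log2 steps of 0.77 in A-C and 1.84 in D-F, and the difference over both was 1.31 (SE 0.24, adjusted p = 0.107, edgeR). TNFSF10 was called higher by DESeq2 (adjusted p = 6.16e-06), and by edgeR without A1 (adjusted p = 0.0133), without A2 (adjusted p = 0.0132) and without the filter on low counts (adjusted p = 0.049). In D-F only 17.3% of the 200 ng/ml increase of TNFSF10 was present at 20 ng/ml, compared with 51.9% in A-C. Of the 160, 45 were at least 1.5-fold higher by fitted value. Near the threshold lay ISG20, an exonuclease, which was named after its values were seen. It had 31.6, 36.1, 27.6 and 33.6 CPM at 20 ng/ml, 49.6, 53.7, 48.8 and 50.4 CPM at 200 ng/ml and a difference of 0.65 (adjusted p = 0.0535, edgeR). ISG20 levels at the doses did not overlap, and DESeq2 called the gene higher.

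The checkpoint ligands that the study examined were in this undecided group. CD274, which encodes PD-L1, had 18.2 and 23.3 CPM in B, 29.3 and 27.9 CPM in C, 26.4 and 26.9 CPM in E and 36.9 and 38.6 CPM in F. Both 200 ng/ml samples of each set exceeded both 20 ng/ml samples, and the log2 difference was 0.48 (SE 0.16, 95% interval 0.11 to 0.85, adjusted p = 0.409, edgeR). LGALS9, which encodes galectin-9, had 49.3 and 42.0 CPM in B, 63.0 and 69.7 CPM in C, 68.5 and 69.3 CPM in E and 96.3 and 86.9 CPM in F. Its doses were likewise separated within each set, and the difference was 0.47 (SE 0.14, 95% interval 0.16 to 0.79, adjusted p = 0.342, edgeR). Neither gene passed the edgeR test or was shown to be level. DESeq2 called LGALS9 higher (0.48, adjusted p = 0.0355) and did not call CD274 (0.49, adjusted p = 0.256). KAT2A, the acetyltransferase GCN5, was not induced and was level, with 52.3 to 66.6 CPM at 20 ng/ml, 56.8 to 72.1 CPM at 200 ng/ml and a difference of 0.01 (95% interval -0.23 to 0.25). SNAI1, a repressor of E-cadherin, had at most 3.83 CPM in any treated sample and a difference of 0.01 with an interval of -0.58 to 0.61, so that a step within 1.5-fold could not be told at this depth.

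**Figure D4:**
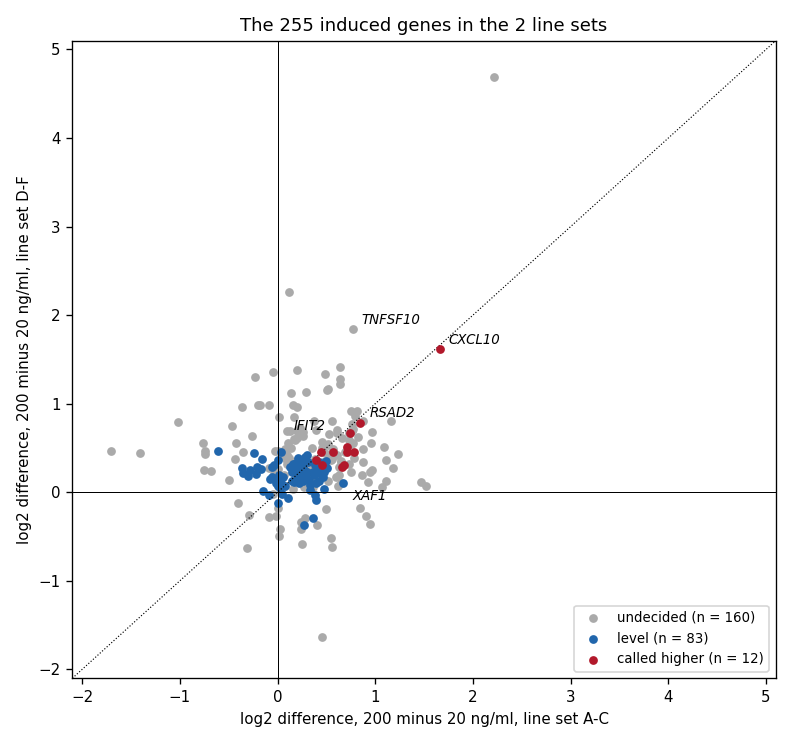
Log2 difference of 200 minus 20 ng/ml in line set A-C (horizontal axis) and D-F (vertical axis) for the 255 induced genes, coloured as called higher (red, 12), level (blue, 83) or undecided (grey, 160), with a dotted line of equal steps. Most points lie up and to the right of 0, and TNFSF10 lies above the line with steps of 0.77 and 1.84.

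By role, the genes that carry the signal itself were mostly level, but only 3 of the 8 were induced. A level gene that IFNα did not induce cannot be at a plateau, so the number induced is given for each interferon list. The level counts of a list cover all its tested members, induced or not, and so are not counts of genes at a plateau. Among all genes 47.7% were level and 0.135% were called, while 4.35% were higher and 4.90% lower at an unadjusted p under 0.05. Of the 8 receptor and JAK-STAT genes 0 were called by edgeR and 7 were level. Their median difference was 0.15 beside 0.00 for all genes. At an unadjusted p under 0.05, 3 of them were higher and 1 was lower, and DESeq2 called 1 higher. STAT2 had a difference of 0.23 (95% interval 0.05 to 0.41, adjusted p = 0.416, edgeR). IFNAR2 was the one member that was not level, with 12.9 and 23.1 CPM in B1 and B2, 31.8 and 30.4 CPM in C1 and C2, 35.7 and 31.5 CPM in E1 and E2 and 48.3 and 32.3 CPM in F1 and F2. The doses were separated in A-C and overlapped in D-F, where F2 stood below E1, and the difference was 0.52 (SE 0.18, adjusted p = 0.416, edgeR). Of 8 IRF factors and amplifiers 3 were induced, 0 were called by edgeR and 5 were level (median 0.08). In this list 3 were higher at an unadjusted p under 0.05 and DESeq2 called 2 higher. BATF2 had a difference of 0.58, IRF2 of 0.57, NLRC5, the class I transactivator, of 0.33 and IRF5 of -0.23, and the genes that DESeq2 called were IRF2 and NLRC5.

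Among 8 feedback inhibitors 3 were induced, 1, TRIM21, was called higher and 5 were level (median 0.15). USP18, which removes ISG15 from proteins and blocks the receptor, had 91.0 and 100 CPM in B, 121 and 123 CPM in C, 67.1 and 82.5 CPM in E and 108 and 103 CPM in F, with the doses separated in both sets. Its difference was 0.42 (SE 0.09, adjusted p = 0.203, edgeR; adjusted p = 0.0137, DESeq2), while those of CISH and SOCS3 were 0.46 and -0.24.

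Most antiviral effectors were within 1.5-fold of their high-dose level at 20 ng/ml, and many were slightly below it. Of 51 tested, 44 were induced, 5 were called higher (RSAD2, IFIT2, IFIT1, IFIT3 and HERC5), 0 were called lower and 34 were level. At an unadjusted p under 0.05, 37 of the 51 (72.5%) were higher and 0 were lower, and DESeq2 called 22 higher. Their median difference was 0.25, with 47 of 51 positive, and the range ran from -0.16 for IFITM1 to 0.81 for RSAD2. Nucleic acid sensors, of which 9 of 12 were induced, had 2 called higher (DDX58 and DDX60L), 6 level and a median of 0.28, with 9 higher at an unadjusted p under 0.05 and 4 called higher by DESeq2. ZBP1, a sensor of Z-form nucleic acid that can start necroptosis, had 12.5 and 18.6 CPM in B and 32.5 and 28.5 CPM in C, with 26.1 and 25.0 CPM in E and 42.7 and 39.4 CPM in F. The ZBP1 doses were separated, and its difference of 0.83 (SE 0.21) did not pass with edgeR (adjusted p = 0.278) but was called by DESeq2 (adjusted p = 0.0013). TLR3, the endosomal receptor of double-stranded RNA, had a difference of 0.51 (SE 0.17).

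The 5 guanylate-binding protein genes had the highest median of the lists, 0.58, with 3 induced, 2 called, 2 level and 5 of 5 positive. GBP5 had the highest value, 0.87 (SE 0.26, adjusted p = 0.350, edgeR), but its F2 sample, at 2.75 CPM, lay below E1, at 2.79 CPM. Of 17 class I antigen presentation genes 5 were induced, 0 were called by edgeR and 14 were level, with a median of 0.11. At an unadjusted p under 0.05, 4 were higher, and DESeq2 called 1 higher. ERAP1, which trims peptides for class I molecules, had a difference of 0.38 (95% interval 0.23 to 0.52, adjusted p = 0.0819, edgeR) and was the gene DESeq2 called, and PSMB9, an immunoproteasome subunit, 0.34. B2M, the light chain of class I molecules, could not be placed, with 175 and 535 CPM in B1 and B2 and 434 and 187 CPM in C1 and C2. HLA-C also differed between replicates, with 226 CPM in E2 and 458 CPM in E1.

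Of 14 chemokine, cytokine and tryptophan genes tested, 5 were induced, CXCL10 was called and 5 were level (median 0.22). CXCL11, which shares the receptor of CXCL10, had 9.04 and 8.67 CPM in B, 17.4 and 10.2 CPM in C, 2.54 and 4.45 CPM in E and 8.82 and 8.24 CPM in F. Its doses were separated in both sets and the difference was 0.96 (SE 0.32, adjusted p = 0.404, edgeR). WARS, the tryptophan tRNA synthetase gene, which DESeq2 also called higher, had a difference of 0.53 and IL6 of 0.44. IDO1, which degrades tryptophan and was named after its values were seen, had at most 4.68 CPM in any sample and a difference of 1.03 (SE 0.27, adjusted p = 0.307, edgeR).

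Among 8 checkpoint ligands 3 were induced, 0 were called by edgeR and 2 were level, with a median of 0.36. At an unadjusted p under 0.05, 2 were higher, and DESeq2 called 1 higher. PDCD1LG2, which encodes PD-L2, had a difference of 0.51. PVR also had a higher value, 0.56, but its A-C samples at 200 ng/ml were 63.8 and 193 CPM and enclosed those at 20 ng/ml, 91.6 and 81.6 CPM. Of 16 cell death genes 1 was induced, 0 were called by edgeR and 9 were level (median 0.20). In this list 6 were higher and 1 lower at an unadjusted p under 0.05, and DESeq2 called 1 higher. Of 8 HLA class II genes 1 was induced, 0 were called by edgeR or DESeq2, 1 was higher at an unadjusted p under 0.05 and 0 were level (median 0.13). CD74, the invariant chain, had 236 and 256 CPM in B and 249 and 285 CPM in C but at most 0.999 CPM in E and F, so that its fitted difference of 1.19 rests on a few counts in D-F. The 7 interferon-linked noncoding genes tested had 3 induced, 0 called by edgeR or DESeq2, 1 higher at an unadjusted p under 0.05, 1 level and a median of 0.17.

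**Figure D5:**
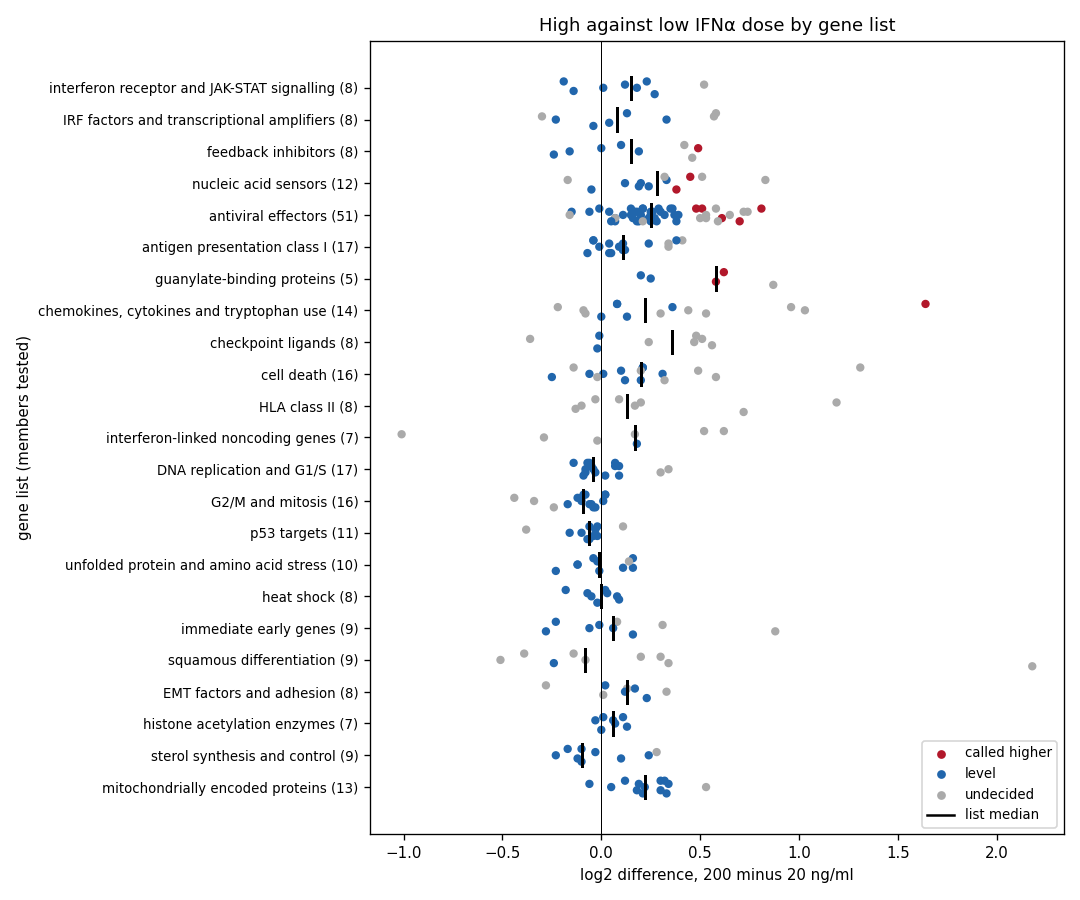
Log2 difference of 200 minus 20 ng/ml (horizontal axis) for every tested member of 23 gene lists (vertical axis, number of members tested in parentheses), with members called higher in red, level in blue and undecided in grey, and list medians as black bars. The guanylate-binding proteins have the highest median, 0.58. The replication, mitosis, p53 and unfolded protein lists have medians slightly under 0, at -0.04, -0.09, -0.06 and -0.01.

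Of 104 genes in 10 lists outside interferon signalling, edgeR called 0 between the doses, with 5 higher (4.81%) and 6 lower (5.77%) at an unadjusted p under 0.05, near the 4.35% and 4.90% of all genes, and DESeq2 called 1, AURKA, lower. The lists were DNA replication and G1/S (17 genes, median -0.04), G2/M and mitosis (16 genes, -0.09), p53 targets (11 genes, -0.06), unfolded protein and amino acid stress (10 genes, -0.01), heat shock (8 genes, 0.00) and immediate early genes (9 genes, 0.06), and further squamous differentiation (9 genes tested, -0.08), EMT factors and adhesion (8 genes tested, 0.13), histone acetylation enzymes (7 genes, 0.06) and sterol synthesis (9 genes tested, -0.10). Most of these genes were level, including 15 of 17 in replication, 13 of 16 in mitosis, 9 of 11 among p53 targets and 8 of 8 in heat shock. By contrast, 1 of 9 squamous differentiation genes and 4 of 8 EMT and adhesion genes were level, and the others of these 2 lists were undecided. Among all genes 47.7% were level. Positive differences were found in 7 of 17 replication, 3 of 16 mitosis, 1 of 11 p53, 4 of 10 unfolded protein and 4 of 8 heat shock genes. They were found in 5 of 9 immediate early, 4 of 9 squamous, 7 of 8 EMT, 5 of 7 histone acetylation and 3 of 9 sterol genes. Among all genes 50.3% were positive. Over both sets AURKA, a mitotic kinase, came nearest to a call. It had 78.8 and 76.0 CPM in F1 and F2 against 144 and 155 CPM in E1 and E2. In A-C it had 133 and 150 CPM in C1 and C2 against 138 and 133 CPM in B1 and B2. The lower values thus lay in D-F alone, where the edgeR test of the D-F step called AURKA lower (-0.95, adjusted p = 0.0397). The difference over both sets was -0.44 (SE 0.08, adjusted p = 0.0953, edgeR). DESeq2 called the step different between the line sets in 1 of the 16 mitosis genes. MYC had a difference of 0.88 that lay mainly in C2, at 20.8 CPM against 3.54 to 6.58 CPM in the other 7 treated samples.

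Mitochondrially encoded genes had a median of 0.22 with 12 of 13 positive, 12 level and 0 called by edgeR or DESeq2, 10 being higher at an unadjusted p under 0.05. The step was seen in A-C, and DESeq2 called it different between the line sets in 5 of the 13. MT-ND2, a subunit of respiratory complex I, had 4617 and 4193 CPM in B, 6490 and 8345 CPM in C, 2861 and 3279 CPM in E and 3070 and 2747 CPM in F. C2 was the highest sample, and the log2 steps were 0.75 in A-C and -0.08 in D-F. MT-CO2 had steps of 0.73 and -0.06. The part of this shift in other A-C differences was not tested. The median step of the induced genes was 0.28 in A-C and 0.31 in D-F.

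IFNα reduced 86 genes (0.431% of those tested) at least 2-fold by the same criteria. The size of this set changed when single samples were left out. Of the 86, 1 was called lower and 1 higher at 200 ng/ml, beside 0.0451% and 0.0903% of all genes. Both were unannotated loci assembled from the reads whose change lay in 1 line set. At an unadjusted p under 0.05, 22 (25.6%) were lower and 10 (11.6%) higher, compared with 4.90% and 4.35% of all genes. The step differed between the line sets at an unadjusted p under 0.05 in 24 of the 86 (27.9%), compared with 9.09% of all genes. DESeq2 called this difference in 7 of the 86, so the steps over both sets do not show a shared fall. A further 7 were level and 77 undecided, and 32 of 86 (37.2%) had a positive difference, compared with 50.3% of all genes. In 8 of the 86 (9.30%) both 200 ng/ml samples lay below both 20 ng/ml samples in both sets, against 3.42% of all genes. An example chosen after its values were seen is ACO1, the iron regulatory aconitase, which had 124 and 123 CPM in A, 59.2 and 62.2 CPM in B, 41.4 and 47.9 CPM in C, 58.1 and 59.5 CPM in D, 23.8 and 20.8 CPM in E and 19.2 and 19.8 CPM in F. ACO1 was classed as level, with a difference of -0.32 (adjusted p = 0.248, edgeR), and at 20 ng/ml its level was already below that of the controls in both sets.

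Besides induced and reduced genes, 5 genes were called higher and 8 lower, of which 6 had separated doses in both sets and enough counts to be named by the rule. RASAL2, which encodes a Ras GTPase-activating protein, had 142 and 151 CPM in B, 218 and 240 CPM in C, 60.6 and 62.7 CPM in E and 112 and 101 CPM in F. Its 20 ng/ml levels were close to those of the controls (130 and 141 CPM in A, 64.9 and 59.8 CPM in D), and only the 200 ng/ml samples stood apart. The difference was 0.72 (SE 0.06, adjusted p = 0.00937, edgeR) and was called in each of the 12 fits without 1 sample. QRICH1, a regulator of the stress response of the endoplasmic reticulum, behaved otherwise. It had 37.5 and 33.2 CPM in B and 67.6 and 75.9 CPM in C, compared with 56.6 and 58.9 CPM in the controls A, and in D-F it had 52.3 and 61.9 CPM in E, 93.5 and 89.5 CPM in F and 61.8 and 62.6 CPM in D. The A-C samples at 20 ng/ml lay below their controls and those at 200 ng/ml above, with a difference between doses of 0.85 (SE 0.08, adjusted p = 0.00937, edgeR). TMEM268, a transmembrane protein gene, had a difference of 0.88 (SE 0.12, adjusted p = 0.0372, edgeR), and its call was kept in only 3 of the 12 fits without 1 sample, the fewest of these 6 genes.

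Among the genes called lower, HELLPAR, a long noncoding RNA gene, had 22.4 and 18.2 CPM in B, 7.21 and 4.71 CPM in C, 95.1 and 90.7 CPM in E and 29.8 and 46.7 CPM in F. The doses were far apart in both sets, and the log2 difference of -1.52 (SE 0.19, adjusted p = 0.0185, edgeR) came with control levels of 16.3 CPM in both A samples and of 80.7 and 114 CPM in D. SLC11A2, the iron transporter DMT1, went from 66.5 and 68.3 to 34.3 and 33.9 CPM in A-C and from 72.4 and 82.5 to 66.3 and 54.4 CPM in D-F, a difference of -0.67 (SE 0.08, adjusted p = 0.0180, edgeR). CDCA4, a cell cycle regulator, went from 39.3 and 40.5 to 31.7 and 34.0 CPM in A-C and from 64.5 and 56.2 to 29.9 and 32.8 CPM in D-F, a difference of -0.61 (SE 0.08, adjusted p = 0.0341, edgeR). In the 12 fits without 1 sample the calls of HELLPAR, SLC11A2 and CDCA4 were kept in 7, 7 and 4.

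The step differed between the line sets in 8 genes (0.0401% of 19944, adjusted p at most 0.05 for the difference of steps, edgeR), and 0 of these were induced. At an unadjusted p under 0.05 the step differed in 21 of the 255 induced genes (8.24%), near the 1812 (9.09%) of all genes. DESeq2 called 0 of the induced genes, which does not show that the line sets responded alike. Reads of similar family members, as in the GBP, IFIT, DDX60 and HLA families, may have been divided between genes by the counting, which was not measured here, so that their counts are uncertain.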

How the data were processed

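RNA of 12 samples was measured, and the 8 treated samples were compared by dose. Trimmomatic 0.36, HISAT2 2.1.0, StringTie 1.3.3b and GRCh38.p10 are named in the submitters' processing notes, while the annotation release is not given in the sources used here. The authors deposited an estimated count per gene, in whole numbers not scaled for depth, which was used for all tests. The authors also deposited TPM values, used for marker sums, and FPKM values, not used further. A table of transcripts was not used. The members and gene lists were chosen with earlier results of these data known.

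Counts of 60099 genes were fitted with edgeR 4.0.16 (R 4.3.3) after TMM normalization and filterByExpr, which kept 19944 genes, as 6 groups of line set and dose. The difference between doses was the mean of C and F minus the mean of B and E, tested by quasi-likelihood with Benjamini-Hochberg adjustment over all genes. The SE was the log2 difference divided by the square root of F. The counts were estimates rather than the plain counts that the design foresaw, and the same test was kept. The common biological coefficient of variation was 0.196. The counts of same-letter replicates exceeded sampling noise, with chi-square values of 13.4 to 19.0 times their degrees of freedom. At these depths 3 counts equal 0.187 to 0.285 CPM, a floor for counting error only. Same-numbered samples did not deviate together (correlations of -0.045 to 0.056 over 6 pairs of letters), so replicate numbers were not treated as pairs.

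Genes named by the rule had a mean of at least 50 counts in the treated samples, but no limit was applied to the genes the study is about. They were the 10 largest steps among induced genes called higher, the 10 most induced level genes and up to 5 called genes each way that were neither induced nor reduced. The called genes of these groups had doses separated in both line sets. Also named were the genes the study is about and up to 4 members of each list. No reduced gene met the rule, and 1 gene that the rule named is not reported here. DESeq2 1.42.0, other scalings and filters, a replicate block, single line sets and leaving out each sample were alternatives, and the procedure was tested on simulated data. Python 3.11.15 with matplotlib 3.10.9 drew the figures.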

Additional observations from a re-analysis of the deposited data

Results flagged for a closer look

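The step from 20 to 200 ng/ml differed between the line sets in 8 genes by the test of the difference itself (adjusted p at most 0.05, edgeR), 2 of them unannotated loci. In the other 6 the D-F step minus the A-C step, on the log2 scale, was -3.23 for PCDHGC3, -1.72 for GLO1, 1.41 for TWSG1, 2.17 for C1GALT1C1, 2.26 for FOSL2 and 2.51 for FGFRL1. GLO1, which detoxifies methylglyoxal, had 173 and 145 CPM in A, 57.2 and 55.9 CPM in B and 157 and 150 CPM in C, so that only the 20 ng/ml samples of A-C were low, and it had 34.0 to 46.1 CPM in D, E and F. TWSG1 had the mirror pattern, with 71.6 and 68.7 CPM in B against 27.1 to 33.5 CPM in A and C. C1GALT1C1, the chaperone of the enzyme that makes core 1 O-glycans, had 4.56 and 4.61 CPM in E against 18.8 to 22.6 CPM in D and F. FOSL2, an AP-1 factor, had 50.7 and 34.2 CPM in C against 159 to 204 CPM in A and B. FGFRL1 had 6.85 and 4.60 CPM in C against 23.4 to 35.9 CPM in A and B. In the 5 genes whose levels are given, which were named after their values were seen, both replicates of 1 letter stood apart from the other letters of their line set, and a cause was not tested. N6AMT1 (-1.30) and TOMM6 (-1.16), also named after their values were seen, were called lower over both sets. They had their fall mainly in A-C and D-F respectively, and for them the difference between sets was not called.

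Of 64 groups of 4 samples examined for a single distant sample (32 genes at 2 doses), 1 had one. Each group held 2 samples of each line set, and a gap between the sets widens the range and can hide a distant sample. The chance rate of about 1 in 20 holds only for samples of 1 population, so the count does not show that the samples were free of outliers. KAT2A had 72.1 CPM in F2 against 56.8 to 58.7 CPM in the other 200 ng/ml samples.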

How the results depend on the processing

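The positive median step of the induced genes and the absence of induced genes called lower were kept under the 18 alternatives that use both line sets, except that 1 induced gene was called lower without A1. The median was 0.29 to 0.33 when 1 sample was left out, 0.29 with DESeq2, 0.28 in the treated samples alone and in A-C, and 0.28 with induction defined at 20 ng/ml alone, a definition chosen after seeing the data. Numbers of calls depended on the processing, and the cause was not tested. With DESeq2 167 genes were called (103 higher, 64 lower), 51 of them induced and higher, with 5 reduced genes lower and 3 higher and 78 genes differing between line sets. In the treated samples alone 9 were called (8 higher, 1 lower), 5 of them induced and 0 reduced in either direction. With a replicate block 0 genes were called in either direction, 0 induced, 0 reduced and 0 different between line sets, and each of the 12 genes kept a positive difference. Without a filter on low counts 2 reduced genes were called higher. Single line sets were tested as contrasts within the main fit, with the same induced and reduced genes. In A-C alone 5 induced genes were called higher and 50 were level. In D-F alone 5 genes were called (3 higher, 2 lower) with 0 induced higher and 0 reduced lower. Asking for a fold of at least 2 left 9 calls (3 higher), and with an unadjusted p it gave 378 (170 higher, 208 lower). A margin narrowed halfway to no change, or widened to 2-fold, made 12 and 162 induced genes level. Leaving out 1 sample gave 10 to 119 calls (7 to 43 higher, 2 to 76 lower), the top of each range without C1, with 1 to 22 induced genes higher, 0 to 1 induced lower, 70 to 97 level, 0 to 15 reduced lower, 1 to 3 reduced higher and 0 to 70 differing between line sets. Of the 1320 values of single genes in those fits, 99 lost a call, 8 gained one, 36 moved by more than their SE without a call in either fit, and 0 called genes reversed. RLE and upper-quartile scaling moved the median of all genes by at most 0.01, and no called induced gene changed sign. A change of sign was hardly possible for genes whose doses were separated in both line sets. Genes with few counts had wide intervals, which limits what can be said of the 160 undecided genes.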
